A study of Mus musculus with 12 samples.

Results

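Developing T cells that bind self-peptides too strongly, or not at all, die in the thymus, and much of that death runs through the Bcl2 family. Anti-apoptotic members (Bcl2, Bcl2l1, Mcl1) hold the mitochondrial pore formers Bax and Bak1 in check, and BH3-only members (Bcl2l11, also called Bim, and Bbc3, also called Puma) release that hold. Nr4a1, also called Nur77, is an orphan nuclear receptor that is switched on by strong T cell receptor signals, and Fas is the receptor through which Fas ligand starts caspase activation from the cell surface. The thymic stroma may use some of the same genes for its own survival, and thymic macrophages engulf thymocytes that have died.

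These apoptosis genes of thymic selection were taken as a list of 9 genes (Bcl2, Bcl2l1, Bcl2l11, Mcl1, Bax, Bak1, Bbc3, Nr4a1 and Fas), chosen by name and not by their values. A gene was measured where a probe set carried its symbol and no other, and the brightest such probe set over all arrays stood for the gene. By this rule 8 of the 9 genes were found among 19938 named genes, each with a single probe set, and Bax and caspase 3 were not analysed here. RNA came from thymic epithelium/stroma of pups of the FCG cross (core genotypes that separate the gonad from the sex chromosomes) at 7 days of age, on a C57BL/6J background, from which thymocytes had been pressed and washed out. In all FCG mice Sry, the testis-determining gene, is deleted from the Y chromosome, and gonadal males carry it as an autosomal transgene. XXF and XYF are therefore gonadal females without the transgene, with XX or XY sex chromosomes, and XXM and XYM are gonadal males with it. The transgene is present in several copies, so the dose of Sry in these gonadal males is not that of wild type males. XXF and XYF had 3 arrays each, XXM had 4 and XYM had 2, and the labels number them from 1 to 12. No source used here says whether 2 arrays could come from the same pup. The p-values therefore reflect array-to-array spread, which may be partly technical.

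The sequences upstream of 3 members are shown first, because the signals of Bcl2l1 and Fas moved together across the arrays and because Nr4a1 is the classic response gene of the T cell receptor. Each is the 250 bases before an annotated transcript start in RefSeq (mouse build GRCm38.p6), 5′ to 3′ on the strand of the gene. All 8 measured members matched that table, with 13 start sites among them. Capitals mark matches, on either strand, to 6 short motifs: the GC box (GGGCGG), the CCAAT box (CCAAT), the TATA box (TATAAA), an E-box (CACGTG), the AP-1 site (TGAGTCA) and an AP-1-like site that differs from it in 1 base (TGCGTCA); none of the 6 contains another.
Nr4a1, chr15:101266596-101266845, plus strand: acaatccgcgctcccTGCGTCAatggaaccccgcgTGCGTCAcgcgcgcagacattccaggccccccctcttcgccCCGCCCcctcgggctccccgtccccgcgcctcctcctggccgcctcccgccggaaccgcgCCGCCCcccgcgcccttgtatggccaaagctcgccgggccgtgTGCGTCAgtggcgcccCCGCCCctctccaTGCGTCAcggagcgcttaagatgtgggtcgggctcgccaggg
Fas, chr19:34290409-34290658, plus strand: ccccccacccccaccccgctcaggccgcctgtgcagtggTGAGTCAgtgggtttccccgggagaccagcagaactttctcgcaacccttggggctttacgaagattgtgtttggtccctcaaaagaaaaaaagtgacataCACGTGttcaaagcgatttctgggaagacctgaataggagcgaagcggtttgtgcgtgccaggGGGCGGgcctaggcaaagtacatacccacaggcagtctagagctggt
Bcl2l1, outermost start, chr2:152831729-152831978, minus strand: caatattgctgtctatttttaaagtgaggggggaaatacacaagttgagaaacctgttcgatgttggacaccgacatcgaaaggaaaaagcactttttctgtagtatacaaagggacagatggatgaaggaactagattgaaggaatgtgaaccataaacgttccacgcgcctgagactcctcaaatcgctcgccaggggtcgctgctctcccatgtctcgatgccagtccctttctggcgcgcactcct

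The Nr4a1 window held 4 copies of the AP-1-like site and 3 GC boxes. Of 32851 windows of the same length, 1.75% held the AP-1-like site at least once, and the Nr4a1 window was the 1 window with 3 or more copies. The Fas window held 1 copy each of the AP-1 site (in 4.46% of all windows), the E-box (6.02%) and the GC box (32.7%). The Bcl2l1 window shown held none of the 6 motifs, and neither did the windows at the other Bcl2l1 starts. The Bcl2 window, at chr1:106714291-106714540 on the minus strand, held 7 GC boxes, as did 1 of the 3 Bbc3 windows (chr7:16310181-16310430, plus strand), and a second Bbc3 window held 5. Of all windows, 4.09% held 4 or more. A GC box stood upstream of 6 of the 8 measured members, a CCAAT box upstream of 2 (33.9% of windows) and a TATA box upstream of 0 (12.4%). GC content ran from 47.6% to 81.6% over the members' windows, beside a median of 52.4% over all windows. These matches describe letters only, and binding at them was not measured.

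The arrays carried the signals of their labels: Xist stood at 8505 to 9884 on the 7 XX arrays and at 40.0 to 79.9 on the 5 XY arrays, and Sry at 2524 to 2836 in gonadal males and 416 to 565 in gonadal females. Signal here is the deposited linear intensity of a probe set, which has no calibration to RNA copies, so each gene was compared only with itself across arrays. Array medians ran from 327.5 to 345.5. To mark low signal, the 95th percentile of 1035 probe sets for olfactory receptors, genes that most tissues do not express, was used (309.5). Sry in gonadal females, which lack the gene, lay above this value, so a signal above it does not by itself show expression. Although thymocytes had been washed out, all 18 measured thymocyte markers lay above this reference, as did 9 of 9 markers of cortical and 9 of 11 of medullary thymic epithelium (Cldn3 and Trpm5 did not), 8 of 8 of fibroblasts, 7 of 7 of endothelium, 7 of 8 of macrophages (Cd163 did not) and 1 of 4 of erythroid cells. Of all 19938 named genes, 11272 lay above it too, so these counts alone do not show which cells were present. The signals below were read as those of mixed tissue, in which fewer cells of a type and less RNA per cell cannot be told apart. The summed signal of the thymocyte markers was 61297 to 67255 on XX arrays and 58524 to 60742 on XY arrays, with no overlap, and all 18 lay below 0 for XY minus XX by a median log2 difference of -0.11. In that contrast markers of medullary (11 of 11, median 0.10) and cortical epithelium (9 of 9, median 0.07) and of endothelium (7 of 7, median 0.14) lay above 0, and 6 of 8 fibroblast markers lay below 0 (median -0.11). For males minus females all 9 markers of cortical epithelium (median -0.07) and all 7 of endothelium (median -0.10) lay below 0, and 7 of 8 fibroblast markers above 0 (median 0.06). Of 19938 named genes, 10595 lay above and 9343 below 0 for XY minus XX, and 10563 and 9375 for males minus females. Among single probe sets, 0.166% kept the XX and XY arrays apart. No marker was called by limma in either contrast, and the part of these marker shifts in the results on the apoptosis genes was not tested.

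Among the anti-apoptotic members, Bcl2, Bcl2l1 and Mcl1 had signals that overlapped between all 4 genotypes. Bcl2, which protects mature single-positive thymocytes, had signals of 1447, 1436 and 1356 in XXF, 1649, 1522 and 1329 in XYF, 1463, 1495, 1570 and 1328 in XXM, and 1508 and 1297 in XYM. The highest and the lowest array both came from XY mice, and the 4 genotypes overlapped. Gonadal females averaged 1456 ± 117 (SD, n = 6) and gonadal males 1443 ± 108 (SD, n = 6), a fitted log2 difference of -0.02 (SE 0.07) for males minus females.

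Bcl2l1, also called Bcl-xL, which keeps double-positive thymocytes alive, had signals of 1380, 1172 and 1495 in XXF, 1370, 1212 and 1444 in XYF, 1465, 1326, 1325 and 1393 in XXM, and 1359 and 1449 in XYM. The 2 lowest arrays and the highest array were all from females, and the male arrays lay between them. Females averaged 1346 ± 128 and males 1386 ± 60.5 (SD, n = 6 each), a log2 difference of 0.05 (SE 0.08). Mcl1, a short-lived protein needed at most stages of lymphocyte development, had signals of 1822, 2040 and 1826 in XXF, 1966, 1952 and 1598 in XYF, 1871, 1856, 1998 and 1591 in XXM, and 1861 and 1815 in XYM. Its lowest arrays were 1 XXM and 1 XYF, which share neither gonadal sex nor chromosome complement. The means were 1867 ± 157 in females and 1832 ± 134 in males (SD, n = 6 each), a log2 difference of -0.02 (SE 0.08).

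Of the pore formers, Bak1 was the member with the widest spread and the lowest difference by gonadal sex. Its signals were 892, 717 and 800.0 in XXF, 852, 797 and 863 in XYF, 857, 784, 594 and 766 in XXM, and 836 and 703 in XYM. The mean was 820.1 ± 62.8 in females and 757 ± 96.8 in males (SD, n = 6 each), and 2 of the 6 male arrays lay below every female array. The log2 difference of -0.12 (SE 0.10) did not pass the test, since limma gave an adjusted p of 0.985 and the exact two-sided permutation p was 0.219 over 924 groupings. The permutation test, here and below, took the plain difference of mean log2 signal between male and female arrays. It did not take the fitted difference, which weighs the genotypes equally. Each run of 4 arrays in label order (1 to 4, 5 to 8, 9 to 12) held 2 male and 2 female arrays, and in these runs Bak1 differed by -0.04, -0.15 and -0.18 on the log2 scale.

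Of the BH3-only members, Bcl2l11 had the smallest spread and Bbc3 the highest difference by gonadal sex. Bcl2l11, best known for the death of thymocytes in negative selection, had signals of 746, 746 and 803 in XXF, 782, 737 and 799 in XYF, 790, 776, 733 and 798 in XXM, and 804 and 699 in XYM. Both the highest and the lowest of these were XYM arrays, so the other 10 arrays lay between the pair. Females averaged 769 ± 29.4 and males 766 ± 41.9 (SD, n = 6 each), a log2 difference of -0.01 (SE 0.06). Bbc3, a p53 target, had signals of 263, 248 and 272 in XXF, 279, 226 and 279 in XYF, 261, 281, 274 and 282 in XXM, and 250 and 322 in XYM. It was the 1 measured member whose mean, 269.8, lay below the olfactory reference of 309.5. Males stood at 279 ± 24.7 and females at 261 ± 20.9 (SD, n = 6 each), with 3 of 6 male arrays above every female array, a log2 difference of 0.10 (SE 0.08), an exact permutation p of 0.229 and, in limma, 0.985 after adjustment.

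Nr4a1 had signals of 541, 478 and 538 in XXF, 511, 464 and 500.2 in XYF, 539, 455, 473 and 528 in XXM, and 621 and 484 in XYM. The highest array was from XYM and stood apart from the second XYM array by more than the range of the 3 XXF arrays. Means were 505 ± 31.3 in females and 517 ± 60.4 in males (SD, n = 6 each). Nr4a1 also had the largest interaction estimate among the members, since the fitted male minus female difference was -0.06 on the log2 scale on XX and 0.16 on XY. The difference between these values, 0.22 (SE 0.16), had a limma p of 0.198, or 1.00 after adjustment, and the high array is 1 of only 2 in XYM. With the runs of 4 arrays in label order added to the fit, the Nr4a1 interaction was 0.13 (SE 0.11). In that fit Mcl1 had the largest estimate, at 0.14.

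Fas had signals of 967, 840 and 990 in XXF, 919, 806 and 949 in XYF, 993, 924, 948 and 899.9 in XXM, and 972 and 970.1 in XYM. The lowest arrays, 1 XXF and 1 XYF, were both from females, and the highest, from XXM, lay just above the highest female array. Females averaged 912 ± 73.2 and males 951 ± 34.5 (SD, n = 6 each), a fitted log2 difference of 0.07 (SE 0.07). The plain log2 difference, 0.06, had an exact permutation p of 0.260 over 924 groupings.

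**Figure D1:**
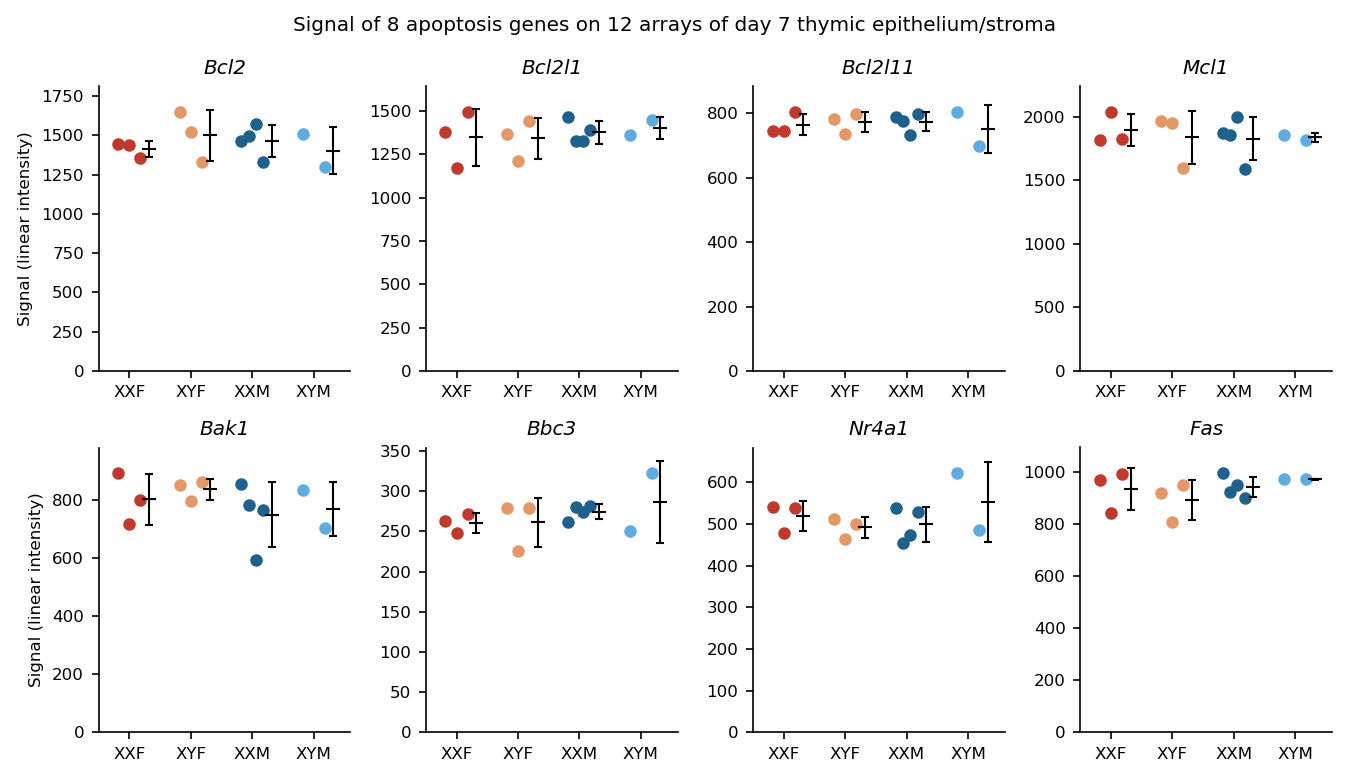
Signal (linear intensity, axis from 0) of the 8 measured apoptosis genes on each of 12 arrays, by genotype (3 XXF, 3 XYF, 4 XXM, 2 XYM). Points are single arrays and black bars are the mean ± SD of a genotype. In 24 of 24 cases genotypes that neighbour each other in the order of their means overlapped. The genotypes with the lowest and the highest mean overlapped for 7 of the 8 members. For Fas they did not, with XYF at 806 to 949 and XYM, on 2 arrays, at 970.1 to 972. The genotypes were ordered by these same values, and no share over all probe sets was taken for either count. Neither count was therefore read as particular to the members or to Fas.

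The first question of the FCG design is whether gonadal sex changes a gene. In a limma fit over all 35556 probe sets, 0 of the 8 members passed an adjusted p of 0.05 for males against females, 0 had an unadjusted p under 0.05, and a two-way analysis of variance on each probe set also called 0. The background was low too: 0.00281% of probe sets (1 of 35556) were called, and 3.03% had an unadjusted p under 0.05. The members' log2 differences ran from -0.12 to 0.10 with a median of 0.02, beside a median of 0.01 over all named genes. Their 95% intervals, as male over female ratios, reached from 0.795 at the lowest (Bak1) to 1.21 at the highest (Bbc3). The narrowest of these intervals, that of Bcl2l11, ran from 0.905 to 1.08. No member had its 6 male and 6 female arrays apart, against 0.0731% of all probe sets.

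The second question is whether the sex chromosome complement changes a gene irrespective of the gonad. For XY against XX, 0 of 8 members were called by limma, 0 had an unadjusted p under 0.05 and the analysis of variance called 0, with 0.0366% of all probe sets called (13) and 2.55% under 0.05 unadjusted. The log2 differences, XY minus XX, lay between -0.02 (Mcl1) and 0.05 (Bak1), a narrower range than by gonadal sex. Their 95% intervals, as XY over XX ratios, covered 0.875 to 1.21. No member separated the 5 XY from the 7 XX arrays, which 0.166% of probe sets did.

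For the interaction of both factors 0 of 8 members were called, with a background of 0.0% of probe sets and 0 members under an unadjusted p of 0.05. Over the 4 genotypes together (limma's F test) 0 of 8 were called, against 0.0281% of probe sets, and in the 4 contrasts of genotypes that differ in a single factor 0 of 8, against 0.0253%. In the order of genotype means, the highest genotype stood above the lowest by a factor of 1.03 for Bcl2l11 and 1.12 for Nr4a1, with the other members between. XYM was the highest genotype for Bcl2l1, Bbc3, Nr4a1 and Fas and the lowest for Bcl2 and Bcl2l11, on 2 arrays. Neither XYM array was among arrays 5 to 8, the run with the lowest mean for Bcl2l1, Bbc3, Nr4a1 and Fas. For these genes a high XYM mean cannot be told apart from the absence of XYM from that run.

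**Figure D2:**
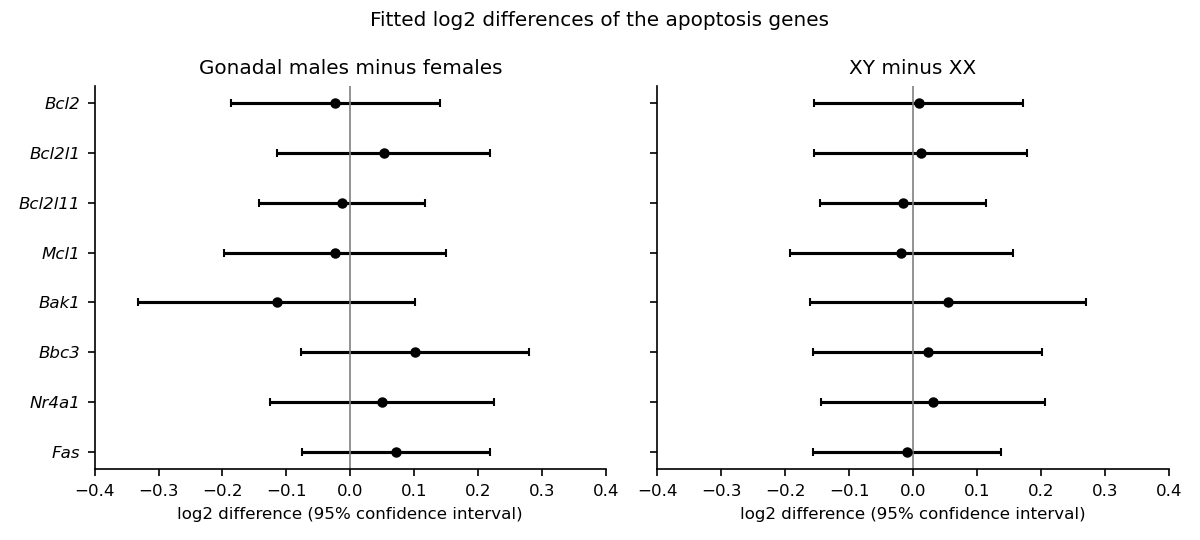
Fitted log2 differences of the 8 measured members with their 95% confidence intervals, gonadal males minus females on the left and XY minus XX on the right, from limma on 12 arrays. Every interval holds 0, and Bak1 has the widest.

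Between arrays of 1 genotype, the members differed in how steady they were. The within-genotype SD on the log2 scale was 0.07 for Bcl2l11, at the 13.8th percentile of 11272 named genes above the olfactory reference, and 0.17 for Bak1, at the 84.4th. The median of those genes was 0.12, and Fas stood at 0.10.

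Array number separated some members where genotype did not. For Bcl2, arrays 9 to 12 lay at 1297 to 1356, below the 1436 to 1649 of the other 8, and these 4 arrays came from all 4 genotypes. For Bcl2l1, arrays 5 to 8 lay at 1172 to 1326, below the others at 1359 to 1495. For Nr4a1, arrays 5 to 8 lay at 455 to 478 and the others at 484 to 621. Arrays 5 to 8 were XXM, XXM, XXF and XYF, so they were mostly XX and held no XYM array. For Bcl2l1 and Nr4a1, array run and genotype can therefore not be fully told apart. So 3 of 8 members had a run of 4 arrays apart from the other 8, against 20.9% of all probe sets, and 2 of 8 (Bcl2 and Bcl2l1) were called for array set in limma, against 30.7% of all probe sets. With backgrounds this high, neither count was read as particular to the members. What the numbers stand for is not given in the sources used here. With the 3 sets as a block, the lowest adjusted p of a member was 0.507 for gonadal sex (Bak1, log2 difference -0.13, SE 0.07), and 0.851 for chromosome complement.

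**Figure D3:**
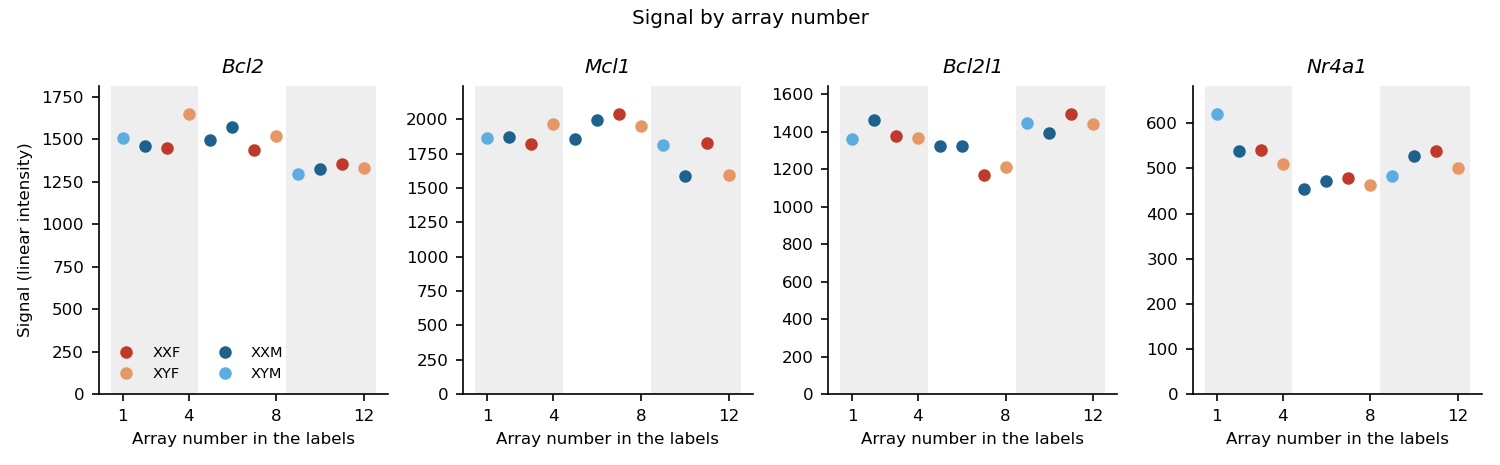
Signal (linear intensity, axis from 0) of Bcl2, Mcl1, Bcl2l1 and Nr4a1 against the array number given in the labels, coloured by genotype; shaded and white bands mark arrays 1 to 4, 5 to 8 and 9 to 12. Bcl2 is lowest on arrays 9 to 12 (1297 to 1356), and Bcl2l1 and Nr4a1 are lowest on arrays 5 to 8 (1172 to 1326 and 455 to 478).

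Whether the members rose and fell together was asked over the 12 arrays, with permutation tests of 100000 resamples. The resamples shuffled all arrays without regard to array set, so their p-values also take in differences between sets. Of 28 pairs of members, 13 correlated positively and 15 negatively, and 1 passed Benjamini-Hochberg adjustment. This was Bcl2l1 with Fas, an inhibitor of the mitochondrial route and a receptor of the other route, with Pearson's r = 0.87 (p = 0.00102, adjusted 0.0286) and Spearman's rho = 0.74 (p = 0.00776, adjusted 0.109). Without the 2 arrays farthest from the median of Bcl2l1, XXF array 7 and XYF array 8, r was 0.57, so the size of the relation rested largely on those 2 arrays, which were the lowest for both genes. With the mean of each array set removed, r was 0.86. Bcl2 with Mcl1 had r = 0.71 (p = 0.00828, adjusted 0.116), which fell to 0.23 once set means were removed. The sets hold 4 arrays each, too few for a correlation within a set.

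The members were also set against the mean log2 signal of the 7 marker lists, 56 pairs in all, of which 1 passed the adjustment. Nr4a1 followed the macrophage markers with r = 0.85 (permutation p = 9.0e-05, adjusted 0.00504) and rho = 0.88 (p = 0.00038, adjusted 0.0213). Here too the permutations disregarded array set, and the value with set means removed was not tested. Without the 2 arrays farthest from the median of the macrophage markers, XXF array 3 and XYM array 1, r was 0.71, and with set means removed it was 0.73. With the thymocyte markers Nr4a1 had r = 0.07 (adjusted p = 0.958). Arrays 1 to 4 held the highest macrophage signal, a sum of 4314 to 5349 over 8 markers against 3955 to 4245 on the other arrays, and XYM array 1 was highest for both Nr4a1 (621) and the macrophage markers. Which cells carried the Nr4a1 RNA was not tested.

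**Figure D4:**
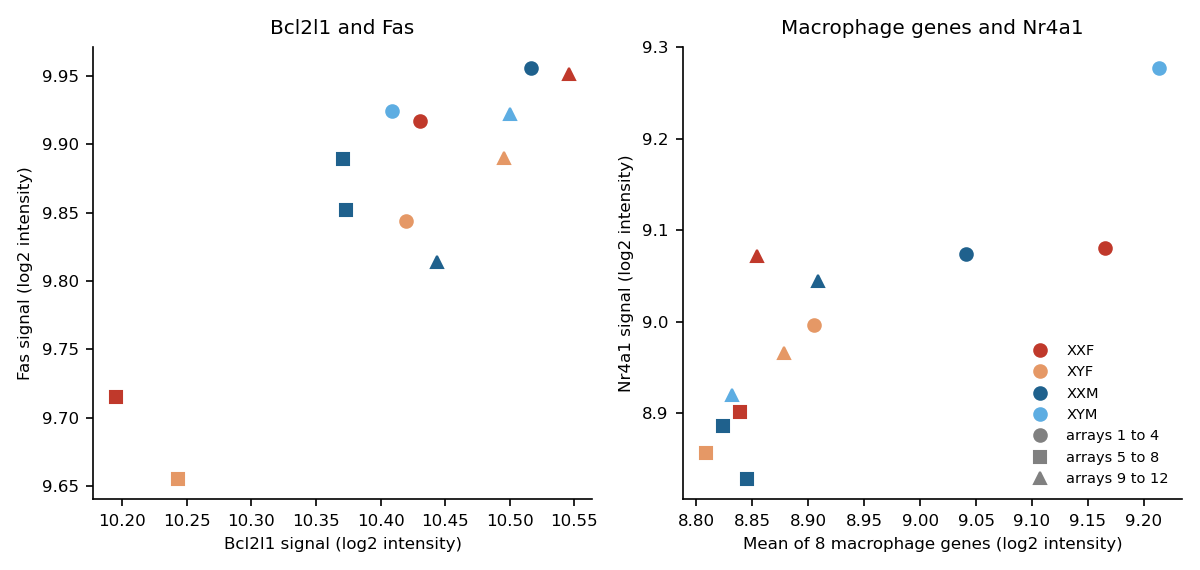
Left, log2 signal of Fas against Bcl2l1; right, log2 signal of Nr4a1 against the mean log2 signal of 8 macrophage markers. Each point is 1 of 12 arrays, with colour for genotype and shape for array set; XXF array 7 and XYF array 8 sit apart at the lower left for Bcl2l1 and Fas, and XYM array 1 at the upper right for the macrophage markers and Nr4a1.

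For each member the genes of most similar course over the 12 arrays were sought among named genes above the olfactory reference. For Nr4a1 these were C1qc (r = 0.911), which encodes a chain of complement C1q and is one of the macrophage markers, and Akr7a5 (r = 0.881). For Fas they were Smn1 (r = 0.912) and Jakmip1 (r = 0.910), and for Bcl2l1 Tfpt (r = 0.956) and Mir181c (r = 0.912). Mcl1 ran with Zfp292 and Plk4, both at r = 0.966, Bcl2 with Slc1a3 (r = 0.957) and Kcnj15 (r = 0.954), and Bak1 with Usp5 (r = 0.963) and Gtf3c5 (r = 0.936). Bcl2l11 had Endov (r = 0.867) and Cry1 (r = 0.862), and Bbc3 had Qrfp (r = 0.917) and Ppp2r5c (r = 0.865). Each is the top of 11271 or 11272 correlations, so values this high are given as a description, with no test.

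The rest of the apoptosis machinery was read from 6 further lists, none of which had a gene called by limma in either contrast. Among 12 measured relatives of the Bcl2 family, 9 lay above 0 for males minus females (median log2 difference 0.04) and 8 for XY minus XX (median 0.06), beside medians of 0.01 over all named genes in each contrast. Of the 19938 named genes, 10563 lay above 0 for males minus females and 10595 for XY minus XX, which stands beside each list count below. Pmaip1, also called Noxa, a BH3-only gene, had 0.12 by gonadal sex (unadjusted p = 0.0896), and Bcl2l2, an anti-apoptotic relative, 0.13 by chromosome complement. The mean signals of both, 200.2 for Pmaip1 and 294.5 for Bcl2l2, lay below the olfactory reference of 309.5. Of 16 genes of the apoptosome and of execution, 7 lay above 0 by gonadal sex and 8 by chromosome complement. Cycs, the cytochrome c that leaves the mitochondria, had the lowest value for XY minus XX at -0.20, with 1917 ± 257 (SD, n = 7) on XX and 1644 ± 133 (SD, n = 5) on XY arrays, and Casp6 had -0.17. Neither passed the test.

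Among other ligands, receptors and signalling genes of the death receptor pathway, 12 of 13 lay above 0 for XY minus XX, by a median of 0.05, while 5 of 13 did for males minus females. Over all 19938 named genes, 10595 lay above 0 for XY minus XX and 10563 for males minus females. Casp8, the caspase that Fas recruits, was at 0.01 and Tnfrsf1a, a receptor for TNF, at 0.05 for XY minus XX, and Tnfsf10, the ligand TRAIL, had the highest value at 0.21 (SE 0.10). Tnfsf10 stood at 564 ± 54.8 (SD, n = 7) on XX and 665 ± 98.3 (SD, n = 5) on XY arrays, which overlapped. Fasl, the ligand of Fas, lay below the olfactory reference with a mean of 111.

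The early response to the T cell receptor, of which Nr4a1 is a part, was read from 14 other genes, with 3 under an unadjusted p of 0.05 for XY against XX (2.55% of all probe sets) and 1 for gonadal sex (3.03% of all probe sets). The genes named here include those of the lowest p in the list. Gadd45b, a stress-response gene, stood at 264 to 307.0 on XX and 313 to 361 on XY arrays (log2 difference 0.21, unadjusted p = 0.00614). Its mean of 309.0 lay just below the olfactory reference of 309.5. Tnfrsf9, a costimulatory receptor also called 4-1BB, stood at 356 to 391 on XX and 395 to 463 on XY arrays (0.18, unadjusted p = 0.00620). In both genes the groups did not overlap (0.166% of all probe sets), and in both the adjusted p was 1.00 in limma. Fos, whose mean of 176 also lay below the olfactory reference, had 0.21 by gonadal sex and 0.17 by chromosome complement, with limma p-values of 0.0176 and 0.0428 before adjustment. Nr4a3, the relative of Nr4a1, had 0.09 and 0.08, with a mean of 309.1 that lay just below the reference. Cd5, which tracks signal strength on thymocytes, had 0.01 and -0.05.

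Of 11 measured genes of p53 and its targets, 10 lay below 0 for males minus females, by a list median of -0.03, and Pmaip1 was the 1 above, while 9375 of 19938 named genes lay below 0. Bbc3, also a p53 target, was counted with the members (0.10) and not in this list. Trp53inp1 had -0.15 for XY minus XX (unadjusted p = 0.0453). Of 12 genes for the clearance of dead cells, 7 lay above 0 by gonadal sex and 8 by chromosome complement, with Mertk, the macrophage receptor for dying thymocytes, at 0.16 (SE 0.10) for males minus females and its ligand Gas6 at -0.06. These list counts are descriptions of genes that share arrays and cells, and no list was tested as a whole.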

How the data were processed

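Day 7 thymic epithelium/stroma was measured on 12 Affymetrix mouse whole-transcript arrays. The authors deposited 1 linear intensity per probe set (35556) and array. Their processing notes give PLIER in Affymetrix Expression Console 1.1, whereas the methods describe RMA and quantile normalization. The values were used as deposited, and 0 columns lacked a sample. Of the probe sets, 21789 had 1 symbol, 1621 several and 12146 none. The fit was made on log2 values in R 4.3.3 with limma 3.58.1 (lmFit, eBayes) and a mean for each of the 4 genotypes, with Benjamini-Hochberg adjustment over all probe sets and a threshold of 0.05, and the script was tested on simulated data. Contrasts were gonadal sex, chromosome complement, their interaction and pairs of genotypes. Means ± SD are on the linear scale.

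The members, the lists and the array sets were chosen with earlier results of these data known. Other genes named came from the 2 brightest of each list, the 2 with the lowest p for sex and for chromosome complement, and the 2 most correlated with each member. Not all genes picked from the lists in this way are named here. Alternatives were quantile normalization, 16 added before log2, a filter on dim probe sets, an additive model, two-way analysis of variance, trend and robust moderation, array weights, array sets as a block, averaged probe sets per gene, and leaving out each array. The number of arrays limits the precision.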

Additional observations from a re-analysis of the deposited data

How the results depend on the processing

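Under 21 alternatives, 12 of which left out 1 array, the number of members called stayed at 0 for gonadal sex, chromosome complement, the interaction, the 4 genotypes and the single-genotype contrasts wherever these could be fitted. The additive model gives no interaction, and the filter on dim probe sets tested 7 members, without Bbc3. The lowest adjusted p of a member was 0.483, for Bbc3 by gonadal sex without XYM array 1, where the unadjusted p was 0.0386. Several differences were so near 0 that 9 of 167 values by sex and 28 of 167 by chromosome complement changed sign, 30 of these on leaving out an array. Quantile normalization turned Bcl2l11 by sex to 0.011 and Mcl1 by chromosome complement to 0.0047 on the log2 scale, and array weights turned Bbc3 by chromosome complement to -0.0059. With array sets as a block, the XY minus XX difference was -0.036 for Bcl2l1, 0.020 for Mcl1, -0.0034 for Bbc3 and -0.012 for Nr4a1. Leaving out 1 array gave XY minus XX differences of -0.0077 to 0.117 for Bak1, -0.068 to 0.114 for Bbc3, -0.046 to 0.063 for Bcl2, -0.037 to 0.051 for Bcl2l1, -0.066 to 0.035 for Bcl2l11, -0.046 to 0.026 for Fas, -0.051 to 0.031 for Mcl1 and -0.058 to 0.121 for Nr4a1. For males minus females these ranges were -0.078 to 0.031 for Bcl2, -0.064 to 0.038 for Bcl2l11, -0.073 to 0.0084 for Mcl1 and -0.040 to 0.139 for Nr4a1, each of which includes 0, and, with no change of sign, 0.0032 to 0.091 for Bcl2l1 and 0.035 to 0.095 for Fas. Bak1 by sex ran from -0.178 without XYM array 1 to -0.053 without XYM array 9, and was -0.061 without XXM array 6 and -0.076 without XXF array 3. Bbc3 by sex ran from 0.010 without XYM array 9 to 0.192 without XYM array 1, and was 0.050 without XYF array 8. The cause was not tested. Each member's XY minus XX difference changed sign without at least 1 array.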
